A study of Oryza sativa with 12 samples.

Results

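A set of 185 heat-repressed genes was described in rice (Oryza sativa) spikelets, chosen by their measured levels at 29 and 38 °C in the cultivar BR-IRGA 409. The levels were in CPM, the reads of a gene per 1000000 reads assigned to genes in the same library. A gene was taken when its mean over the 3 BR-IRGA 409 libraries at 29 °C was at least 1 CPM, its mean at 38 °C was at most 0.25 of that value, and every 38 °C library lay below every 29 °C library. Of the 57174 genes listed, 20040 reached the level and 185 met all 3 conditions. These are 0.324% of the listed genes and 0.923% of those that reached the level. The mirror rule, with 38 °C as the higher temperature, held 500 genes.

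The plants were of 2 cultivars, IRGA 428, labelled sensitive to heat, and BR-IRGA 409, labelled tolerant. At anthesis, flooded plants of each cultivar spent 3 days in controlled chambers, where the daytime temperature was 29 °C (control) or 38 °C (heat) over 7 h. When the treatment ended, spikelets from the middle of the panicle were frozen, and their RNA was sequenced. Each of the 4 combinations had 3 libraries, and each library pooled 2 plants, so plants within a library cannot be separated. Only 1 sensitive and 1 tolerant cultivar were used, so any difference between them belongs to these cultivars and not to tolerance in general.

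A spikelet is the floral unit of the rice panicle, with its bracts, lodicules, stamens and pistil. Anthesis, when the flower opens and pollen is shed, is the stage at which rice fertility is most easily lost to heat, through poor anther opening, pollen germination and pollen tube growth. In plants, heat in general sets off the synthesis of heat shock proteins, while many genes of growth and metabolism are read less. Genes are listed by MH identifiers, with no names beside them. A search of the rice RefSeq gene table found 0 of the 57174 identifiers, so the genes appear here without names or roles, and the spikelet label was not checked against marker genes. A library of whole spikelets mixes all cell types, and a lower level can come from fewer cells of a type or from less RNA per cell, which cannot be told apart.

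Depth differed with temperature, and a pair of libraries stood apart from their labels. In BR-IRGA 409 the control libraries held 7.08 to 15 M gene counts (M, 1000000) and the heat libraries 39.0 to 75.4 M. In IRGA 428 the ranges were 8.88 to 16.4 M and 16.5 to 27.0 M. Reads with several alignments, which are outside the gene counts, made up 3.70% to 3.82% of the BR-IRGA 409 control libraries and 5.00% to 5.34% of its heat libraries. Among the IRGA 428 libraries, control 3 and heat 1 were the closest pair: their biological coefficient of variation was 0.0792, where pairs of the same group had 0.115 to 0.369. Control 3 and heat 1 lay within 1.5-fold of each other for 92.8% of all genes tested and 76.8% of the set. Exchanging them with each other would thus change most IRGA 428 fold changes little. A wrong label on only 1 of them would change what each IRGA 428 fold change compares. Whether a library or a label was misplaced was not tested and cannot be settled from the files. The counts, bands and named fold changes in IRGA 428 are therefore mostly given with and without control 3 and heat 1.

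In BR-IRGA 409 the 185 genes together took 4702, 3860 and 3595 CPM in the control libraries and 550.0, 1091 and 692.0 CPM in the heat libraries. Group means were 4052 ± 578 CPM (control) and 778 ± 280 CPM (heat), each with its SD over 3 libraries. These values chose the genes and carry no test. In IRGA 428, whose values the choice did not use, the sum was 5787, 4350 and 1512 CPM in the control libraries and 1747, 1759 and 1230 CPM in the heat libraries. Control libraries 1 and 2 of this cultivar were thus in or above the range of the BR-IRGA 409 controls, and control 3 lay within the range of the IRGA 428 heat libraries. The median gene stood at 7.09, 4.03 and 1.64 CPM in the IRGA 428 controls and at 1.69, 1.21 and 1.00 CPM in its heat libraries. In BR-IRGA 409 the median gene had 5.51, 4.01 and 3.84 CPM at 29 °C and 0.692, 0.895 and 0.623 CPM at 38 °C.

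**Figure D1:**
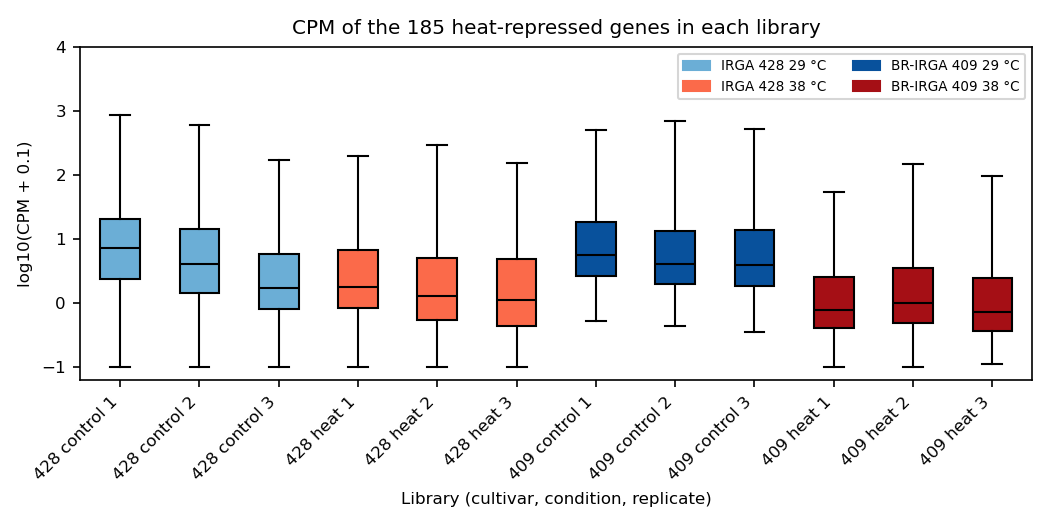
Level of the 185 heat-repressed genes in each of the 12 libraries, as log10(CPM + 0.1); boxes span the middle of the distribution from the lower to the upper quartile, lines are medians and whiskers reach the lowest and highest gene. The IRGA 428 control 3 box (median 1.64 CPM) sits with the heat libraries of that cultivar and not with its controls 1 and 2 (medians 7.09 and 4.03 CPM).

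The genes were mostly of low to moderate level. In the BR-IRGA 409 controls 119 had a mean from 1 to under 10 CPM, 58 from 10 to under 100 CPM and 8 had 100 CPM or more. The median gene had 4.44 CPM, against 15.5 CPM over the 22321 genes that passed the filter on low counts. CPM is not divided by gene length, so an order of genes by CPM is an order of reads. The 10 genes with most CPM held 49.6% of the summed CPM of the set in the BR-IRGA 409 controls and 48.4% in the IRGA 428 controls. At the low end, 36 of the 185 had under 10 counts in at least 1 BR-IRGA 409 control library, and the lowest count was 2. In the deeper heat libraries 105 genes had a mean below 1 CPM and 5 below 0.1 CPM.

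The size of the change in BR-IRGA 409 was bounded from below by the choice of genes. The control mean exceeded the heat mean by 4.00-fold to 34.3-fold, with a median of 5.13-fold; 34 genes reached 8-fold and 21 reached 10-fold. The genes next to the fold limit were MH09g0248900 and MH06g0481600 inside, at ratios of 0.2497 and 0.2498, and MH02g0484600 and MH10g0445400 outside, at 0.2501 and 0.2502. At the level limit, MH02g0361200 and MH01g0813500 stood inside at 1.00 and 1.03 CPM. MH01g0121500 and MH04g0413300 stood outside at 0.997 and 0.988 CPM. A further 6 genes met the level and the fold and missed through overlap alone. One of them, MH11g0083600, chosen for mention after its values were seen, had a lowest control of 49.95 CPM and a highest heat value of 49.97 CPM. Of the 184 heat-repressed genes that passed the filter, 127 were called lower in heat in BR-IRGA 409 (edgeR quasi-likelihood F-test, Benjamini-Hochberg adjustment). The background was 5.13% of all genes tested; since this contrast chose the genes, nothing is read from the count. Without heat 2, the rule was met by 291 genes, 176 of them among the 185.

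Replicates varied more in these genes than in the rest of the transcriptome. The coefficient of variation among the BR-IRGA 409 controls had a median of 35.9% over the 185 genes, against 14.3% over the genes tested, and among its heat libraries 42.1% against 12.5%. In IRGA 428 the medians were 67.0% against 21.2% among controls and 46.2% against 14.4% among heat libraries. The IRGA 428 medians include control 3 and heat 1 and were not taken without them. Control 3 was the lowest control for 148 of the 185 genes (80.0%, against 44.4% of all genes tested). The heat-repressed genes had fewer reads than the genes tested at large, which adds counting error to these values, and its part was not tested. Among the BR-IRGA 409 controls, control 1 was the highest of its group for 107 of the 185 genes (57.8%, against 37.3% of all genes tested). Among the heat libraries, heat 2 was the highest for 107 genes (57.8% against 43.2%) and heat 3 for 27 (14.6% against 17.9%). These libraries chose the genes, so the shares are descriptions.

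The gene with most CPM at 29 °C in BR-IRGA 409 was MH08g0557700. It had 470, 292 and 515 CPM in the control libraries and 24.2, 150.0 and 94.98 CPM in the heat libraries, in the order of the replicate numbers. In IRGA 428 it had 337, 481 and 173 CPM at 29 °C and 195, 298 and 153 CPM at 38 °C. The temperatures overlapped there, because control 3 lay between heat 3 and heat 1. The fitted log2 fold change in IRGA 428 was −0.53 (SE 0.55, edgeR adjusted p = 0.675). It was −0.82 without control 3 (edgeR adjusted p = 0.415) and −0.75 without control 3 and heat 1 (edgeR adjusted p = 0.528).

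MH04g0681700 came next in CPM and varied far more between replicates. In BR-IRGA 409 it had 138, 707 and 137 CPM at 29 °C and 25.3, 17.9 and 28.3 CPM at 38 °C, so that control 2 stood far above the other controls. In IRGA 428 it had 677, 604 and 5.24 CPM at 29 °C and 4.48, 70.6 and 74.9 CPM at 38 °C. Control 3 and heat 1 held a level of their own, below the other 4 libraries. Its log2 fold change in IRGA 428 was −2.98 (SE 1.35, edgeR adjusted p = 0.423). Without control 3 it was −3.55 (edgeR adjusted p = 0.0661), and without both libraries −3.01 (edgeR adjusted p = 0.0616). Over the whole set, control 3 and heat 1 both lay below the other 4 IRGA 428 libraries for 28 genes (15.1%) and above them for 3 (1.62%). Over all genes tested the shares were 18.5% and 13.3%, so lying below the other 4 was no more frequent in the set than among genes at large.

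The question put to IRGA 428 was whether the genes repressed in the tolerant cultivar were also lower at 38 °C in the sensitive one. None of the 184 genes tested was called, with a background of 0% of 22321 genes called lower (edgeR, smallest adjusted p of any heat-repressed gene 0.401). At an unadjusted p below 0.05, 85 of the 184 (46.2%) were lower in heat against 6.86% of all genes tested, and 1 was higher against 4.85%. The fitted fold change was negative for 172 of them (93.5%), where the background was 50.4%. A log2 fold change of −1 or less was found for 109 (background 3.15%) and of −2 or less for 35 (background 0.349%). The median log2 fold change was −1.25, with an interquartile range of −1.91 to −0.58, and over all genes tested it was −0.0034. These backgrounds were not matched to the set for level or for spread between replicates. In the IRGA 428 controls the median gene of the set had 4.14 CPM, against 16.55 CPM over all genes tested. The count of 85 rested in part on single libraries: it was 37 without control 1 and 54 without heat 3, and the median without control 1 was −0.78. Limma-voom called 0 of the genes, with 72 lower at an unadjusted p below 0.05, and DESeq2 had 97 lower at that limit. For the counts of 37, 54, 72 and 97, and for calls by DESeq2, the share of all genes tested was not taken. The 6.86% belongs to the main edgeR fit and is no background for them. DESeq2 called 1, MH01g0267300, at 4.96, 2.26 and 0.442 CPM in the controls and 0.424, 0.242 and 0.148 CPM in the heat libraries (log2 fold change −3.13, SE 0.71, DESeq2 adjusted p = 0.0228).

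**Figure D2:**
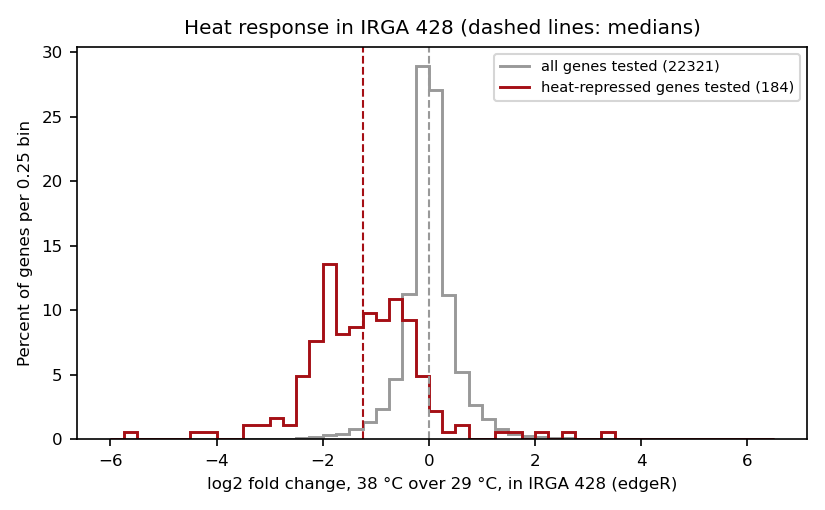
Percent of genes in each bin of the fitted log2 fold change of 38 °C over 29 °C in IRGA 428, for the 184 heat-repressed genes tested (red) and all 22321 genes tested (grey); dashed lines are the medians, −1.25 and −0.0034. The red distribution lies mostly below 0, with a short tail above it.

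The number of calls in IRGA 428 changed when control 3 was left out. Without it, 48 of the 185 genes were called lower by edgeR (Benjamini-Hochberg adjustment), against 3.29% of the 22709 genes then tested, and 0 were called higher. Without both control 3 and heat 1, 60 were called lower against a background of 2.77%. This second fit was chosen after the data were seen, and 41 genes were called in both fits. The called genes had a median log2 fold change of −2.35 in the first and −2.71 in the second. At an unadjusted p below 0.05 the counts lower in heat were 110 and 115 (background 13.5% in each). The fits without these libraries leave fewer controls, which are then assumed to vary like the other groups. Control 3 lay among the heat libraries in summed CPM, so leaving it out widens the gap in the set by construction. Calls lower in heat among all genes tested also rose, from 0% with all libraries.

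Overlap of the single libraries was also counted. All heat libraries lay below all control libraries of IRGA 428 for 30 of the 185 genes (16.2%), where the background was 8.23%. They lay above all controls for 1 gene, MH04g0413400 (background 4.05%). Controls 1 and 2 lay above all heat libraries while control 3 did not for 98 genes, with a background of 20.9%. Without control 3 the groups did not overlap for 128 genes (background 29%), without heat 1 for 85 (background 20.1%), and without both libraries for 151 (background 38.7%). Control 3 was the lowest of the controls for 148 genes (80.0%, against 44.4% of all genes tested) and the highest for 6 (3.24% against 27.9%). It was below heat 1 for 123 genes (66.5% against 47.6%). The level of each IRGA 428 library was also set against the midpoint, the geometric mean of the BR-IRGA 409 control and heat means of the same gene. Control 1 lay above this midpoint for 163 genes and control 2 for 151, control 3 for 78, and heat 1, 2 and 3 for 91, 62 and 43. The shares of all genes tested above it were 64.7%, 62.2% and 52.6% in the controls and 51.3%, 55.8% and 52.9% in the heat libraries. The midpoint comes from the BR-IRGA 409 means that chose the genes. In the set it lies well below the control mean, and where both means are alike it lies near them. The shares are thus no background for the set, and the counts are descriptions.

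**Figure D3:**
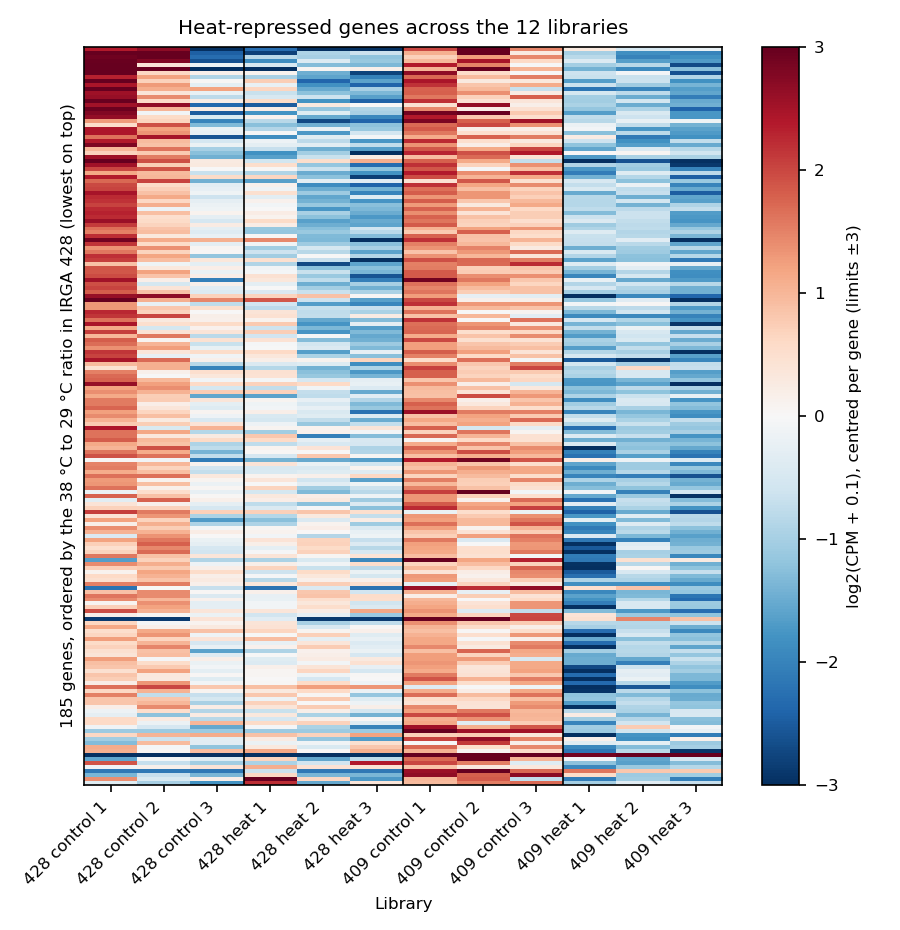
log2(CPM + 0.1) of the 185 heat-repressed genes (rows) in the 12 libraries (columns), centred on the mean of each gene and ordered by the ratio of the temperatures in IRGA 428, lowest on top. Red is above and blue below the mean of the gene; BR-IRGA 409 splits by temperature in each row, as the choice of genes demands, while IRGA 428 control 3 is paler than controls 1 and 2 in most rows.

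Depth moved with these values and is given beside them. The summed CPM of the set in IRGA 428 was highest in the shallowest library, control 1, and lowest in the deepest, heat 3. Control 3 and heat 1, at 15.8 and 16.5 M, were of like depth to control 2 at 16.4 M, whose sum was 4350 CPM against 1512 CPM in control 3. With all libraries thinned to 7.08 M gene counts, the groups of IRGA 428 did not overlap for 27 genes in place of 30. The share of all genes tested was not taken after thinning, so the count of 27 has no background here. The thinned median log2 fold change was −1.21 in place of −1.25. Thinning evens out read numbers only. The part of depth in these levels, and of other properties that go with it, was not tested.

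**Figure D4:**
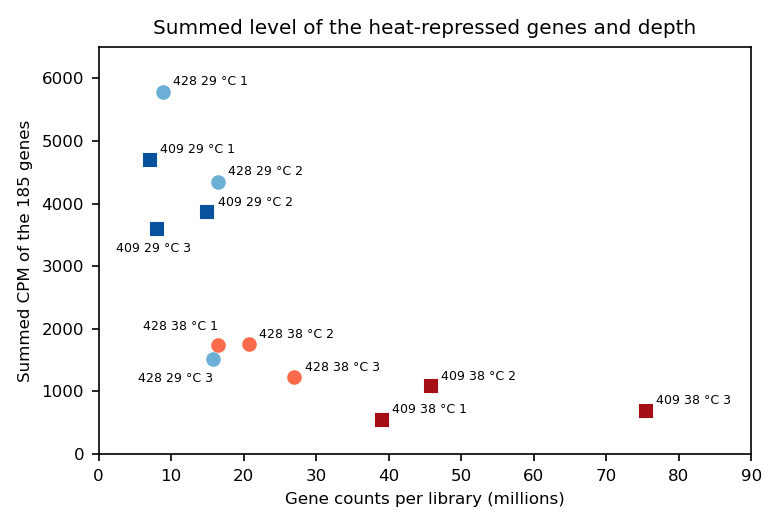
Summed CPM of the 185 heat-repressed genes (vertical) against gene counts per library in M (horizontal), 1 point per library, circles for IRGA 428 and squares for BR-IRGA 409, with blue for 29 °C and red for 38 °C. Libraries of about 16 M gene counts are found at 4350 CPM (IRGA 428 control 2) and at 1512 and 1747 CPM (control 3 and heat 1).

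The genes fell into bands by their ratio of mean CPM at 38 °C to 29 °C in IRGA 428, taken with 0.1 CPM added to each mean. The ratio was at most 0.25 for 34 genes, at most 0.5 for 109, above 0.5 and at most 1 for 63, and above 1 for 13. Among the genes tested, 0.255% had a ratio of at most 0.25 and 3.45% of at most 0.5. A ratio above 0.5 and at most 1 was found for 57.4% of them, and above 1 for 39.2%. With control 3 and heat 1 left out, the ratio was at most 0.25 for 81 genes, at most 0.5 for 134, above 0.5 and at most 1 for 47, and above 1 for 4. Of the genes tested, 1.44% and 7.19% then had ratios of at most 0.25 and at most 0.5. The ratio was above 0.5 and at most 1 for 53% and above 1 for 39.8%.

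By level at 29 °C in BR-IRGA 409, the median log2 fold change in IRGA 428 was −1.01 for the 43 tested genes from 1 to under 2 CPM. It was −1.26 for the 75 from 2 to under 10 CPM, −1.35 for the 58 from 10 to under 100 CPM and −0.81 for the 8 above. With control 3 and heat 1 left out, the medians of the 4 bands were −1.37, −1.87, −2.07 and −1.09, with 44 genes in the lowest band.

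The most negative fold changes in IRGA 428 belonged to genes that were nearly silent in 4 of its libraries. MH02g0147800 had 10.0, 12.4 and 0.126 CPM at 29 °C and 0.303, 0.00 and 0.148 CPM at 38 °C. Controls 1 and 2, with 89 and 203 counts, stood apart from the other 4 libraries, which had 0 to 5 counts. In BR-IRGA 409 its levels were 7.77, 46.8 and 5.33 CPM at 29 °C and 2.28, 1.24 and 1.56 CPM at 38 °C. Its log2 fold change in IRGA 428 was −5.56 (SE 1.5, edgeR adjusted p = 0.401), and without control 3 it was −6.15 (edgeR adjusted p = 0.0188). With heat 1 left out as well it was −6.88 (edgeR adjusted p = 0.0424).

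MH02g0361200 had the same form at a lower level. It had 3.603, 5.92 and 0.00 CPM at 29 °C and 0.182, 0.145 and 0.111 CPM at 38 °C in IRGA 428. Again only controls 1 and 2 were high. The BR-IRGA 409 levels were 0.706, 1.07 and 1.24 CPM at 29 °C, from 5, 16 and 10 counts, and 0.179, 0.0218 and 0.0398 CPM at 38 °C. The log2 fold change in IRGA 428 was −4.33 (SE 1.19, edgeR adjusted p = 0.401) and −4.93 without control 3 (edgeR adjusted p = 0.00494). Leaving out heat 1 too gave −5.09 (edgeR adjusted p = 0.0138).

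Among genes with a mean of at least 1 CPM at either temperature in IRGA 428, the 2 most positive fold changes went with high values in heat 1. MH05g0427200 had 0.338, 0.183 and 0.0632 CPM at 29 °C and 2.54, 0.0967 and 0.630 CPM at 38 °C, from 1 to 3 counts in each control and 42, 2 and 17 in the heat libraries. MH06g0583000 had 6.87, 1.83 and 2.91 CPM at 29 °C and 22.3, 4.01 and 0.704 CPM at 38 °C. In both genes the heat and control libraries overlapped. The log2 fold changes were 2.63 (SE 1.00, edgeR adjusted p = 0.401) and 1.34 (SE 1.00, edgeR adjusted p = 0.557). Without heat 1 the first was 1.19 and the second turned negative, −0.58. Without control 3 as well they were 0.76 and −0.71. In BR-IRGA 409 the levels of MH06g0583000 were 5.23, 9.43 and 1.49 CPM at 29 °C and 0.538, 1.20 and 0.544 CPM at 38 °C.

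**Figure D5:**
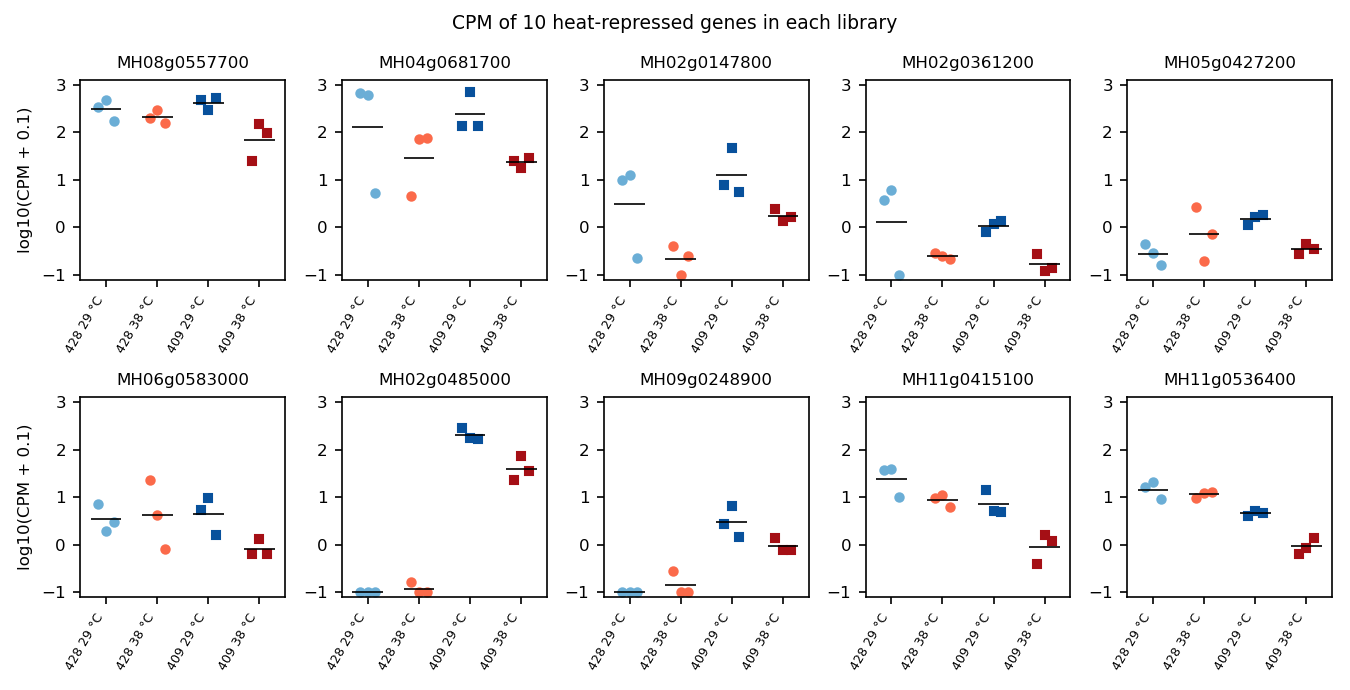
CPM of 10 heat-repressed genes, as log10(CPM + 0.1), with 1 point per library and the mean of the 3 log values as a line; 428 is IRGA 428 (circles), 409 is BR-IRGA 409 (squares). In MH04g0681700, MH02g0147800 and MH02g0361200 the lowest IRGA 428 control is control 3, at 5.24, 0.126 and 0.00 CPM.

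At 29 °C, 140 of the 185 genes (75.7%) had means within 2-fold of each other in the 2 cultivars, against 93.1% of all genes tested. More than 2-fold lower in IRGA 428 were 35 genes (18.9%, against 2.63% of all genes tested), and more than 2-fold higher 10 (5.41% against 4.23%). The ratio of BR-IRGA 409 to IRGA 428 means, with 0.1 CPM added, had a median of 1.13. Groups did not overlap with IRGA 428 below for 28 genes (background 5.65%) and above for 2 (background 10.9%), MH11g0536400 and MH11g0658900. The side of the median rested on control 3. Without it the median ratio was 0.910. More than 2-fold lower in IRGA 428 were then 21 genes (11.4%, against 3.29% of all genes tested). More than 2-fold higher were 24 (13%, against 4.51%). Groups then did not overlap with IRGA 428 below for 29 genes (background 9.52%) and above for 20 (background 22.3%). The genes had been chosen for high values in the BR-IRGA 409 controls, so these counts are descriptions.

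At 38 °C the IRGA 428 mean was the higher one for 147 of the 185 genes (79.5%), against 60.1% of all genes tested. The median ratio of BR-IRGA 409 to IRGA 428 was 0.612. The heat libraries did not overlap with IRGA 428 above for 65 genes (background 20.3%) and below for 8 (background 13.2%). Without heat 1 the IRGA 428 mean was higher for 118 genes (63.8%, against 56.9% of all genes tested), and the median ratio was 0.751. The libraries then did not overlap with IRGA 428 above for 73 genes (background 29.5%) and below for 16 (background 18.5%). Low values in the BR-IRGA 409 heat libraries were a condition of the choice, so no test is given for this difference.

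A few genes were read in BR-IRGA 409 and hardly or not at all in IRGA 428. At most 3 counts over the 6 IRGA 428 libraries were found for 3 of the 185 genes (1.62%, against 0.435% of all genes tested). MH02g0485000 had 277, 171 and 170 CPM at 29 °C and 23.0, 73.3 and 34.8 CPM at 38 °C in BR-IRGA 409, and 1 count in all 6 IRGA 428 libraries. With 3 counts over the IRGA 428 controls as the limit that a count of 0 allows (0.0730 CPM), it was at least 2678-fold higher in BR-IRGA 409 at 29 °C. MH09g0248900 had 2.54, 6.49 and 1.36 CPM at 29 °C and 1.26, 0.677 and 0.663 CPM at 38 °C in BR-IRGA 409. In IRGA 428 it had 0 counts at 29 °C and 3 at 38 °C, all in heat 1, and was at least 57.3-fold higher in BR-IRGA 409 at 29 °C. MH04g0348700, named after its values were seen, had 0 counts in IRGA 428 and also the largest fold in BR-IRGA 409, 34.3. That fold rested on 40 counts in the controls and 8 in the heat libraries. Such bounds cover counting error only, and whether IRGA 428 reads could align to these genes was not tested.

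The lowest ratios of BR-IRGA 409 to IRGA 428 at 29 °C were those of MH11g0415100 and MH11g0536400. MH11g0415100 had 36.8, 38.9 and 9.66 CPM in the IRGA 428 controls and 9.50, 10.9 and 6.04 CPM in its heat libraries, with control 3 again among the heat values. Its log2 fold change there was −1.59 (SE 0.59, edgeR adjusted p = 0.401). It was −1.99 without control 3 (edgeR adjusted p = 0.0575) and −2.05 without both libraries (edgeR adjusted p = 0.0959). In BR-IRGA 409 it had 14.3, 5.02 and 4.71 CPM at 29 °C and 0.282, 1.48 and 1.06 CPM at 38 °C.

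MH11g0536400 had 15.9, 20.4 and 8.91 CPM at 29 °C in IRGA 428. The heat libraries of that cultivar had 9.44, 12.1 and 12.7 CPM, and its fitted log2 fold change was −0.31 (SE 0.31, edgeR adjusted p = 0.667). Without control 3 it was −0.56 and without both libraries −0.44 (edgeR adjusted p = 0.274 and 0.414). In BR-IRGA 409 it had 3.81, 4.95 and 4.58 CPM at 29 °C and 0.538, 0.764 and 1.30 CPM at 38 °C. The 2 temperatures overlapped in IRGA 428, and all 6 libraries of that cultivar lay above all 6 of BR-IRGA 409.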

How the data were processed

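The authors deposited unnormalized counts of reads for each gene and library. Trimmomatic 0.33, HISAT2 2.05 and HTSeq 0.6.1 are named in the submitters' processing notes; parameters, genome build and strand use were not given in the sources used here. Without strand, overlapping antisense genes cannot be told apart, and genes with near-identical copies are uncertain, since reads with several alignments were not counted to genes. The 5 closing lines of each file, which name no gene, were left out of library sizes; genes held 75.0% to 80.1% of the reads.

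CPM was the count over the sum of gene counts of the library. Fits used edgeR 4.0.16 in R 4.3.3: filterByExpr (22321 genes), trimmed mean of M-values, 1 mean per group over 12 libraries, and the robust quasi-likelihood F-test for heat in IRGA 428. P-values were Benjamini-Hochberg adjusted over all genes tested and called below 0.05. The fits were run on simulated counts with known changes, where all genes and libraries shared the same spread. The spread in these data was unequal, so the simulation does not bear on the number of calls in IRGA 428. Of the heat-repressed genes, 1, MH02g0465000, did not pass the filter. DESeq2 1.42.0, voom in limma 3.58.1, other scalings, no filter, fits of fewer libraries, thinning to equal depth and leaving out libraries served as alternatives.

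Named genes were the 2 with most CPM in the BR-IRGA 409 controls, the 2 lowest and 2 highest fold changes in IRGA 428 (mean of at least 1 CPM there), and the 2 highest and 2 lowest ratios of the cultivars at 29 °C. The heat-repressed genes, rules and tests were chosen with earlier results of these data known. Lists by gene function and marker genes were planned and not used, because no ID had a name. Nothing in the labels says that libraries with equal replicate numbers were grown together; p-values measure the spread between these libraries.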

Additional observations from a re-analysis of the deposited data

Results flagged for a closer look

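MH04g0413400 was lower in every heat library of BR-IRGA 409, as the choice of genes demands, and higher in every heat library of IRGA 428, the only 1 of the 185 genes with this form. In IRGA 428 it had 0.901, 1.10 and 1.33 CPM at 29 °C and 2.18, 1.35 and 1.37 CPM at 38 °C, from 8 to 37 counts per library. Its log2 fold change there was 0.595 (SE 0.38, edgeR adjusted p = 0.502). In BR-IRGA 409 it had 1.84, 1.20 and 1.24 CPM at 29 °C and 0.179, 0.393 and 0.491 CPM at 38 °C. The difference between the cultivars was not tested.

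Reads that aligned to several places, which enter no gene count, were more frequent in the heat libraries of BR-IRGA 409. Their share was 5.15% ± 0.173 at 38 °C against 3.76% ± 0.0583 at 29 °C (SD, n = 3), a gap of 1.39 percentage points without overlap. In IRGA 428 they took 4.08%, 4.38% and 4.30% of the controls and 4.12%, 4.62% and 4.90% of the heat libraries. Their part in the levels of the heat-repressed genes was not tested.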

How the results depend on the processing

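In BR-IRGA 409, 34 genes met the rule with a limit of 0.125 and 66 with a control mean of at least 10 CPM, all by construction among the 185. Scaled library sizes gave 155 genes, and thinning gave 214, with 150 of the 185; leaving out 1 BR-IRGA 409 library gave 148 to 291. In IRGA 428, edgeR called 0 of the genes under other scalings, without the filter, with only IRGA 428 libraries and after thinning, as did limma-voom. DESeq2 called 1. Leaving out 1 IRGA 428 library gave 0 to 48 called genes, 37 to 110 at an unadjusted p below 0.05, a median log2 fold change of −1.55 to −0.78, and 32 to 128 genes without overlap; fewer libraries overlap less by construction. With only the IRGA 428 libraries, 48 of 152 genes tested were lower at an unadjusted p below 0.05. The share of all genes at this p was not taken for that fit, for the replicate block or for most fits without 1 library. Those counts therefore have no background here. Without both control 3 and heat 1, an alternative chosen after seeing the data, 60 were called and 151 did not overlap. The fold change of MH06g0583000 ran from −0.58 (without heat 1) to 1.94 over the fits without 1 library and was −0.71 without both. With the replicate number as a block within cultivars, 0 genes were called, 88 were lower at an unadjusted p below 0.05 and the median was −1.2. Not every pair of libraries of equal number deviated together, so the numbers were not taken as pairs: the correlations of their deviations were 0.25, 0.577 and −0.16 in IRGA 428, and −0.0888, −0.305 and 0.112 in BR-IRGA 409. Other scalings moved the median of all genes to at most 0.024 on the log2 scale. Levels near 1 CPM rest on about 7 counts in the shallowest library, which limits the lowest genes.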

Other observations

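Chromosomes are taken from the first digits of each identifier, a reading that no file states. The heat-repressed genes made up 0.566% (chromosome 12) to 1.35% (chromosome 10) of the genes with at least 1 CPM in the BR-IRGA 409 controls, with 28 genes on chromosome 1 and 6 on chromosome 12. In the order in which the files list the IDs, 4 pairs of heat-repressed genes were direct neighbours and 2 pairs were separated by 1 ID. The pair with most reads was MH01g0789200 and MH01g0789300, chosen after its values were seen. MH01g0789200 had 99.5, 60.3 and 106.6 CPM in the BR-IRGA 409 controls and 5.69, 37.9 and 22.2 CPM in its heat libraries. MH01g0789300 had 81.5, 36.0 and 88.5 CPM and 2.82, 16.4 and 10.0 CPM. In both genes control 2 was the lowest control and heat 1 the lowest heat library. In IRGA 428 both had their highest level in control 2 (105.9 and 83.1 CPM) and their lowest in heat 3 (32.5 and 24.1 CPM). Whether any of these neighbours are near-identical in sequence was not tested, and reads that aligned to several places were not counted to genes.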
